A study of Spongilla lacustris with 18 samples.

Results

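Galectins are lectins, proteins that recognise sugars, and they bind glycans that end in beta-galactoside. They are made in the cytosol and leave the cell by an unconventional route, after which they can cross-link glycoproteins at the cell surface and in the matrix. In mammals galectin-8 also binds glycans exposed on the inner face of broken endosomes and lysosomes and recruits autophagy receptors there, and in marine sponges galectins take part in the species-specific aggregation of cells. The deposited table of the freshwater sponge Spongilla lacustris held 39562 genes, and 2 of them carried a galectin name, c100695-g1 and c100727-g1. They were found by a search of the annotation for "galactoside-binding", for "galectin" or for an LGALS symbol. Both carried the same name, that of the galactoside-binding soluble lectin 8, assigned by orthologous group, which states similarity to galectin-8 and not identity. Membership rested on the name. The lead gene, c100695-g1, was taken as chosen by its measured difference between tryptamine and vehicle at 1 h, the only comparison in which an earlier analysis of the same counts described it. If its values at other times also entered the choice, the p-values given for them are not independent of it. All values of the 1 h comparison are therefore given as a description, without a test.

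The libraries came from whole juvenile wild-type sponges grown for 9 days at 18 °C. They were exposed to 37.5 µM tryptamine, a trace amine derived from tryptophan, or to 0.03% DMSO, the vehicle. Sponges were collected after 1 h of exposure, after 4 h of exposure, or 24 h after a 4 h exposure had been washed out, so that 6 groups of 3 libraries resulted, with a DMSO group at every time. The labels do not say that replicates were separate cultures or clones, so p-values measure only the spread between these samples, which may be technical. Each library held between 11379345 and 23769406 counted read pairs, with the highest in DMSO at 1 h, replicate 2, and the second highest at 15798197. Marker lists for 4 sponge cell groups (flagellated choanocytes, contractile pinacocytes, archaeocytes, and spicule- or collagen-secreting cells) matched 29, 34, 18 and 19 genes, and no matched gene was at 0 in any group. In whole bodies, fewer cells of a type and less RNA per cell cannot be told apart.

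Both genes were well covered. Gene c100695-g1 had 1141 to 9729 read pairs per library and c100727-g1 had 6400 to 24244, so counting error was small beside the spread between libraries. By mean level, in CPM (counts scaled to a common total over the tested genes and corrected with TMM factors), c100727-g1 ranked 142 and c100695-g1 ranked 1101 among 24125 tested genes. Each row joined several assembled contigs. That of c100695-g1 held a contig of 1656 bases and one of 480 bases that the assembly had numbered as a second gene, and that of c100727-g1 held 3 contigs, the longest of 1247 and the shortest of 417 bases. Per kilobase of summed contig length, c100727-g1 was 1.83 to 5.94 times as abundant as c100695-g1 in the 18 libraries, with a median of 3.78. Per kilobase of the longest contig the median ratio was 6.85. Read pairs that mapped to several contigs were not counted, which makes these ratios uncertain.

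As a description that includes the 1 h libraries, over the 18 libraries c100695-g1 spanned 4.86-fold, from 89.6 to 436 CPM, and c100727-g1 spanned 2.32-fold, from 467 to 1086 CPM. Over the 12 libraries outside 1 h the spans were close, 2.33-fold for c100695-g1 (up to 209 CPM) and 2.21-fold for c100727-g1 (up to 1035 CPM). The lowest library was tryptamine after recovery, replicate 2, for both genes, and the highest was DMSO at 1 h, replicate 2, for both. The biological coefficient of variation fitted by edgeR was 18.8% for c100695-g1 and 19.1% for c100727-g1. The trend over genes of the same abundance was 18.98% and 19.1%. The fit draws each gene's value towards that trend, so their closeness does not show how usual the spread is. Within groups, the SD was 10.2% to 30.6% of the mean for c100695-g1 and 9.37% to 32.5% for c100727-g1.

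**Figure D1:**
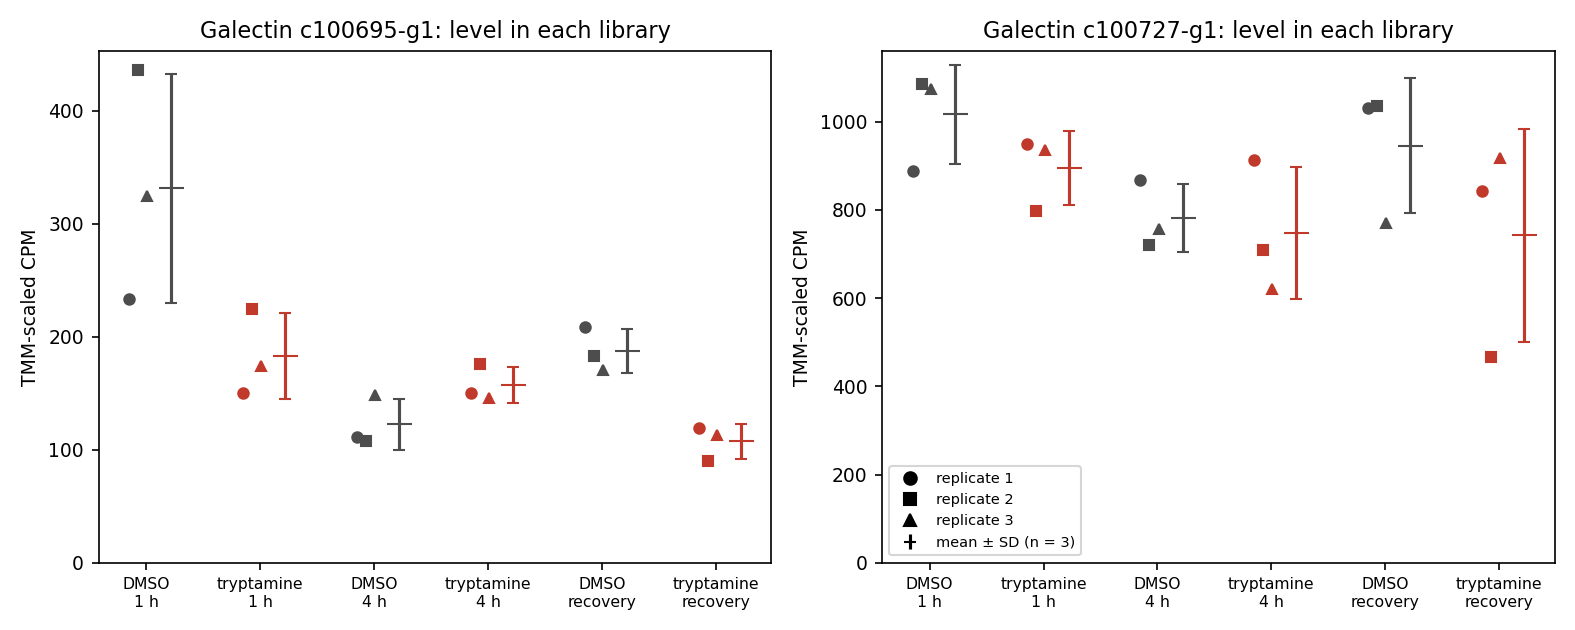
Level of each galectin gene in TMM-scaled CPM (y axis, from 0) in the 6 groups (x axis), with 1 point per library shaped by replicate number and the mean ± SD of 3 libraries beside the points. Gene c100695-g1 was highest in DMSO at 1 h (233 to 436 CPM) and lowest in tryptamine after recovery (89.6 to 119 CPM), while the groups of c100727-g1 lay closer together.

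After washout and recovery, c100695-g1 was lower in sponges that had received tryptamine. It measured 209, 183 and 171 CPM in DMSO replicates 1, 2 and 3, and 119, 89.6 and 113 CPM in the tryptamine replicates. All 3 tryptamine libraries lay below all 3 DMSO libraries, with means of 107 ± 15.8 against 187 ± 19.5 CPM (SD, n = 3). The log2 difference was -0.80 (SE 0.20, 95% interval -1.22 to -0.38, edgeR adjusted p = 0.0466), which puts tryptamine at 0.573 of the vehicle level. The gene was thus 1 of 2 galectin genes called, in a comparison that called 1.86% of all tested genes, 0.497% as lower, and in which the groups did not overlap for 23.9% of the tested genes, with tryptamine lower for 10.6%. The adjusted p lay close to the threshold of 0.05. The call was lost without any single library of the 6 compared (log2 difference -0.89 to -0.69, adjusted p = 0.066 to 0.199) and with non-robust dispersions (adjusted p = 0.0553), whereas DESeq2, limma-voom and 5 other alternatives kept it.

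In the same comparison, marker genes called numbered 0 of 31 for pinacocytes and contractile cells and 0 of 18 for sclerocytes and collagen-secreting cells. For choanocytes they numbered 0 of 29 and for archaeocytes 1 of 18, where 1.86% of all tested genes were called. At an unadjusted p under 0.05 there were 7, 4, 5 and 10, where 17.2% of all tested genes were. Of the 31 tested markers of pinacocytes and contractile cells, 26 were below DMSO, with a median log2 difference of -0.25 against -0.03 over all tested genes, and their summed level was 6871 to 9601 CPM after tryptamine against 9044 to 10715 CPM after DMSO. Of 18 archaeocyte markers, 16 were above DMSO with a median of 0.50 and 1 was called higher, where 1.36% of all tested genes were, and their summed levels overlapped at 1425 to 1831 against 1521 to 1700.0 CPM. Markers of sclerocytes and collagen-secreting cells had a median of 0.22 (summed level 1195 to 1825 against 1222 to 1317 CPM) and choanocyte flagellum markers one of -0.08 (819 to 1144 against 1020 to 1181 CPM). The part of cell composition in the lower level of c100695-g1 was not tested.

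The other galectin gene, c100727-g1, did not pass the test after recovery. It measured 1032, 1035 and 769.9 CPM in DMSO and 842, 467 and 917 CPM in tryptamine, so the groups overlapped. The log2 difference was -0.35 (SE 0.20, 95% interval -0.77 to 0.07, edgeR adjusted p = 0.399). Without tryptamine replicate 2, the library at 467 CPM, the difference was -0.10. Over all single libraries left out it ran from -0.53, without tryptamine replicate 3, to that value.

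During exposure, at 4 h, neither galectin gene was called. Gene c100695-g1 measured 111, 108 and 148 CPM in DMSO and 151, 176 and 146 CPM in tryptamine. The highest DMSO library lay just above the lowest tryptamine library, and the log2 difference was 0.36 (SE 0.20, 95% interval -0.06 to 0.78, edgeR adjusted p = 0.518). Gene c100727-g1 measured 868, 721 and 756 CPM in DMSO and 913, 709.8 and 621 CPM in tryptamine, so all DMSO libraries lay inside the tryptamine range. Its log2 difference was -0.06 (SE 0.20, 95% interval -0.49 to 0.36, edgeR adjusted p = 0.958). The comparison called 1.5% of all tested genes, and groups did not overlap for 13.5%. The count of 0 of 2 was the same at an unadjusted p under 0.05 and with DESeq2 and limma-voom. Of 18 tested markers of sclerocytes and collagen-secreting cells, 11 were below DMSO and 7 above (median log2 difference -0.07, 1 called lower). Their summed level was 1440 to 1666 CPM in tryptamine against 1709 to 1911 CPM in DMSO. Medians were -0.005 for choanocyte, -0.02 for pinacocyte and 0.13 for archaeocyte markers, with 0 called. The part of these cell groups was not tested.

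The difference between tryptamine and DMSO for c100695-g1 was thus estimated at 0.36 at 4 h, with an interval that included 0, and at -0.80 after recovery. The test of the change between these times gave a log2 difference of -1.17 (SE 0.28, 95% interval -1.76 to -0.57), which was not called (edgeR adjusted p = 0.123, unadjusted p = 0.000582), in a contrast that called 0.0953% of all tested genes. DESeq2 called it (-1.19, adjusted p = 0.0256), among 188 of all genes, and was the only one of 20 alternatives to do so. With limma-voom it was -1.18 (adjusted p = 0.164), and 0 of all genes were called. The same change for c100727-g1 was -0.29 (SE 0.29, adjusted p = 0.764). It was above 0 for 16 of 18 archaeocyte markers (median 0.43) and 15 of 18 sclerocyte and collagen-secreting cell markers (0.39). It was below 0 for 24 of 31 pinacocyte and contractile cell markers (-0.23) and 19 of 29 choanocyte markers (-0.08). None of these markers was called, and their part in the result was not tested.

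At 1 h, the comparison for which c100695-g1 was put forward, it measured 233, 436 and 325 CPM in DMSO and 149.9, 225 and 174 CPM in tryptamine. The highest tryptamine library was just below the lowest DMSO library, with means of 183 ± 38.1 against 331 ± 101 CPM (SD, n = 3). The log2 difference was -0.86 (SE 0.20), and it was -0.61 without DMSO replicate 2, the library with the highest level and the highest total. Gene c100727-g1 measured 887, 1086 and 1075 CPM in DMSO and 948, 797 and 936 CPM in tryptamine, with overlapping groups and a log2 difference of -0.18 (SE 0.20). In this comparison edgeR called 0% of all tested genes. DESeq2 called 16 and limma-voom 0, and 1553 had an unadjusted p below 0.05 in edgeR. Groups did not overlap for 12.2% of the tested genes, with tryptamine lower for 6.18%. Of the marker lists, 14 of 18 archaeocyte genes (median log2 difference 0.28) and 22 of 29 choanocyte genes (0.20) were above DMSO, and their summed levels overlapped between groups (1692 to 2216 against 1702 to 1987 CPM and 986 to 1301 against 956 to 1049 CPM). Of the pinacocyte and contractile cell genes, 19 of 31 were below DMSO (median -0.08, 9848 to 11358 against 10653 to 12179 CPM). Their part in the difference was not tested.

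**Figure D2:**
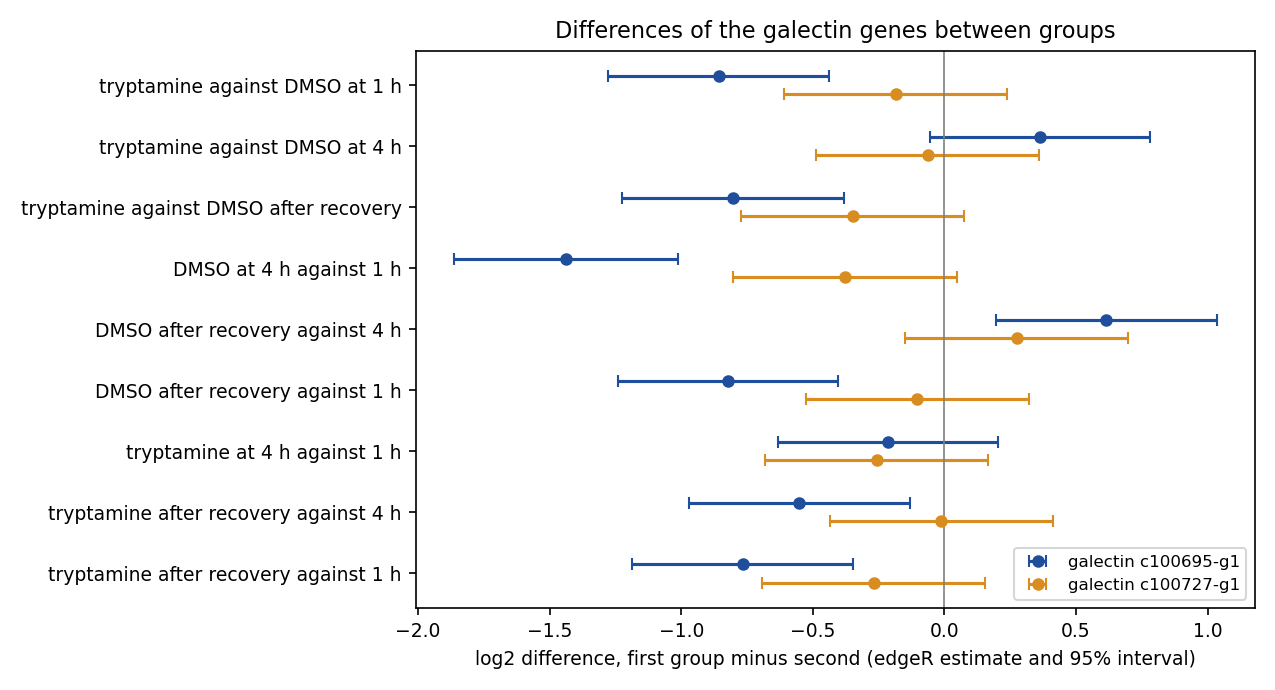
Log2 difference between pairs of groups (x axis, first group minus second, edgeR estimate with its 95% interval) for both galectin genes in 9 comparisons (y axis). For tryptamine against DMSO, the interval of c100695-g1 lies below 0 after recovery and includes 0 at 4 h. The intervals of c100727-g1 include 0 in all 9 comparisons. Comparisons that contain the 1 h groups are a description for c100695-g1, and the place of their intervals beside 0 is no test.

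In the vehicle groups, c100695-g1 had a mean of 331 CPM at 1 h, 122 ± 22.5 CPM at 4 h and 187 CPM after recovery. The 4 h libraries, at 108 to 148 CPM, lay below every DMSO library of the other times. From 1 h to 4 h the log2 difference was -1.44 (SE 0.20), and it was -1.19 without DMSO at 1 h, replicate 2. Groups did not overlap for 20.4% of all tested genes in that comparison. No p is given, because the DMSO libraries of 1 h also entered the comparison for which the gene was chosen. From 4 h to recovery, which used none of those libraries, the log2 difference was 0.61 (SE 0.20, 95% interval 0.20 to 1.03) and was not called (edgeR adjusted p = 0.0722), in a comparison that called 6.86% of all tested genes and in which groups did not overlap for 27.7%. It was called when only the 2 groups were fitted (adjusted p = 0.0245). Over the same interval all 18 tested markers of sclerocytes and collagen-secreting cells were lower after recovery (median log2 difference -0.65, 6 called), with summed levels of 1222 to 1317 CPM against 1709 to 1911 CPM at 4 h. Also lower were 25 of 31 pinacocyte and contractile cell markers (median -0.19, 3 called lower and 1 higher). The same held for 22 of 29 choanocyte markers (-0.11, 1 called higher) and 10 of 18 archaeocyte markers (-0.05, 1 called lower and 1 higher). The part of these cell groups in the result was not tested. Against 1 h the log2 difference after recovery was -0.82 (SE 0.20), a description, where 0.535% of all tested genes were called.

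In tryptamine the course of c100695-g1 was flatter at first. Means were 183 CPM at 1 h, 157 ± 16.0 CPM at 4 h and 107 CPM after recovery. From 1 h to 4 h the groups overlapped, with a log2 difference of -0.21 (SE 0.20), and 0.348% of all tested genes were called (84 genes, against 671 with DESeq2, 4 with limma-voom and 1 to 846 without single libraries). From 4 h to recovery the groups did not overlap, and the log2 difference of -0.55 (SE 0.20, 95% interval -0.97 to -0.13) was not called (edgeR adjusted p = 0.118), where 4.85% of all tested genes were and where groups did not overlap for 21.5%. Over that interval 26 of 31 tested pinacocyte and contractile cell markers were lower after recovery (median log2 difference -0.45, 6 called), with summed levels of 6871 to 9601 CPM against 10116 to 12413 CPM at 4 h. Also lower were 23 of 29 choanocyte markers (median -0.25, 1 called higher) and 11 of 18 markers of sclerocytes and collagen-secreting cells (-0.10). Of 18 archaeocyte markers, 15 were higher (0.41). The part of these cell groups in the result was not tested. Against 1 h the log2 difference after recovery was -0.77 (SE 0.20), a description, where 0.29% of all tested genes were called. The change of the tryptamine effect from 1 h to 4 h was 1.22 (SE 0.28), a description that contains the 1 h difference. So is the mean effect over the 3 times, -0.43 (SE 0.12), in a contrast that called 4.27% of all tested genes.

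Gene c100727-g1 passed no test over time. In DMSO its means were 1016 ± 111, 782 ± 77.1 and 946 ± 152 CPM at 1 h, 4 h and recovery (SD, n = 3), and the 1 h and 4 h libraries did not overlap (887 to 1086 against 721 to 868 CPM), as was so for 20.4% of all tested genes. The log2 difference from 1 h to 4 h was -0.38 (SE 0.20, 95% interval -0.80 to 0.05, edgeR adjusted p = 0.413), in a comparison that called 3.86% of all tested genes. From 4 h to recovery it was 0.27 (SE 0.20, adjusted p = 0.464). In tryptamine the means were 894 ± 83.7, 748 ± 149.8 and 742 ± 241 CPM, with log2 differences of -0.26 from 1 h to 4 h (SE 0.20, adjusted p = 0.669) and -0.01 from 4 h to recovery (SE 0.20, adjusted p = 0.983).

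Ordered by mean level in CPM, c100695-g1 ran from DMSO at 1 h through DMSO after recovery, tryptamine at 1 h, tryptamine at 4 h and DMSO at 4 h to tryptamine after recovery. Only the first step (143.8 CPM) and the step from tryptamine at 4 h to DMSO at 4 h (35.1 CPM) exceeded the larger SD of the neighbouring groups. The first step rests on DMSO at 1 h, which entered the choice of the gene. The libraries of the 4 h groups overlapped, and their difference was not called (edgeR adjusted p = 0.518). For c100727-g1 the order was DMSO at 1 h, DMSO after recovery, tryptamine at 1 h, DMSO at 4 h, tryptamine at 4 h and tryptamine after recovery. Of its steps, only that from tryptamine at 1 h to DMSO at 4 h (112 CPM) exceeded the larger SD. Both orders are a description, and a step beyond an SD is no test.

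The balance between the genes does not depend on how libraries were scaled, and its values at 1 h are a description. Gene c100695-g1 supplied 24.2% ± 4.01 of the counts of both genes in DMSO at 1 h and 13.6% ± 2.58 in DMSO at 4 h (SD, n = 3), with no overlap between libraries (20.8% to 28.6% against 11.3% to 16.4%). After recovery the share was 16.7% ± 1.57 in DMSO and 13.2% ± 2.63 in tryptamine, and there the libraries overlapped (15.0% to 18.1% against 11.0% to 16.1%). At 4 h the tryptamine share, 17.7% ± 3.08, overlapped that of DMSO, and at 1 h it was 17.1% ± 4.34 with 1 tryptamine library, at 21.97%, inside the DMSO range. The summed level of both genes was 1347 ± 205 CPM in DMSO at 1 h and 849.7 ± 256 CPM in tryptamine after recovery, the highest and lowest of the 6 group means.

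**Figure D3:**
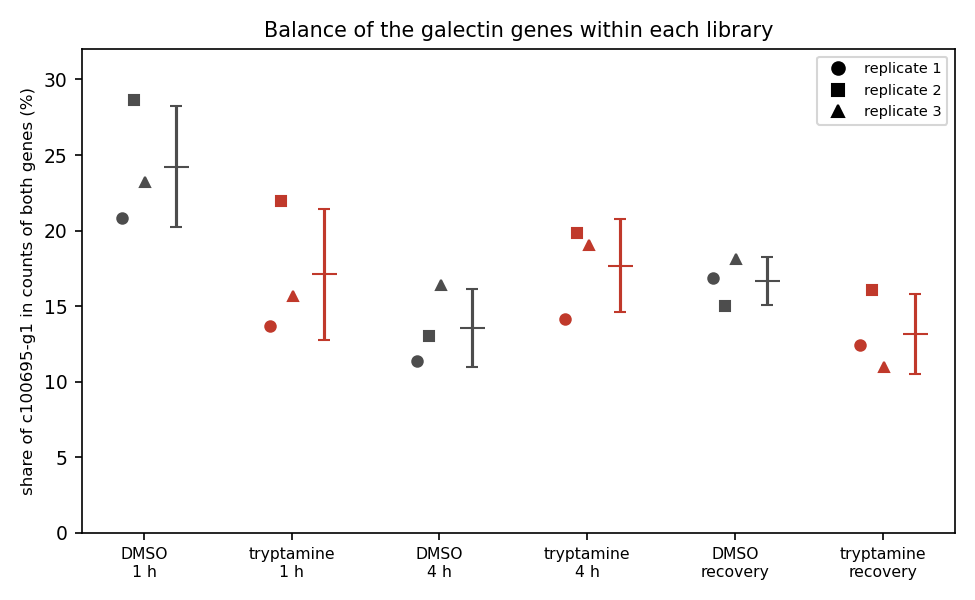
Share of c100695-g1 in the read pairs counted for both galectin genes (y axis, %, from 0) in the 6 groups (x axis), 1 point per library with the mean ± SD of 3 libraries. The DMSO libraries at 1 h (20.8% to 28.6%) lie above all other libraries except 1 of tryptamine at 1 h (21.97%).

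Across the 18 libraries the log2 levels of the genes had a Pearson correlation of 0.62 and a Spearman correlation of 0.60, and their deviations from the group means one of 0.34 (Pearson), as a description of libraries that share depth and scaling. The level of c100695-g1 correlated with the library total (log2) at 0.62, and at 0.26 without the library of highest total.

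Among the genes whose profile over the 18 libraries was most like that of c100695-g1, of 8855 named genes with at least 20 counts on average, were c98411-g1 (STON1 and STON2 by name, endocytic adaptors; Pearson 0.89), USP4 c93848-g1, a deubiquitinase (0.88), an unnamed tyrosine kinase, c99576-g1 (0.87), and MEX3 c103699-g1, an RNA-binding protein (0.85). None of these 4 was called in a comparison of tryptamine with DMSO, and after recovery their log2 differences were -0.39, -0.40, -0.75 and -0.32. The 5 most like c100727-g1 were GABBR2 c99962-g1, named for a subunit of the metabotropic GABA receptor (0.88), IFT140 c103339-g3, of intraflagellar transport (0.86), a dimethylaniline monooxygenase, c103414-g1 (0.85), MAP3K19 c95789-g1, a kinase (0.83), and TTC39 c104278-g1 (0.83). The latter 5 were listed by the same measure after the values were seen, and the GABBR2 gene among them had a mean of only 2.24 CPM. These correlations carry no test.

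Genes listed by name around galectin function did not pass the edgeR test between tryptamine and DMSO. Whether they act with galectins in this sponge was not tested. Of 49 tested genes for the autophagy machinery, which in mammals follows galectin-8 to damaged vesicles, edgeR called 0 at each of the 3 times, where 0%, 1.5% and 1.86% of all tested genes were called at 1 h, at 4 h and after recovery, and DESeq2 and limma-voom called 0. At an unadjusted p under 0.05 there were 0, 8 and 1 of the 49, where 6.44%, 11.7% and 17.2% of all tested genes were. Their median log2 differences were -0.05, 0.12 and 0.01, against 0.02, 0.00 and -0.03 over all tested genes. Of 28 enzymes and transporters of galactose-containing and neighbouring glycans, which make or trim galectin ligands, 0 were called by edgeR, DESeq2 or limma-voom at any of the 3 times, with 0, 3 and 3 at an unadjusted p under 0.05, to be read against the same shares of all tested genes. Their medians were 0.04, 0.06 and 0.15.

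Of 38 surface and matrix glycoproteins whose relatives bind galectins in mammals, such as integrins, laminins, LAMP1 and receptor phosphatases, edgeR and limma-voom called 0 at each time, with 2, 4 and 2 at an unadjusted p under 0.05, where 6.44%, 11.7% and 17.2% of all tested genes were. DESeq2 called 1 after recovery, PTPRD c104563-g1 (edgeR log2 0.88, SE 0.25, adjusted p = 0.0688), in a comparison where it called 1154 of all genes, and none at the other times. The medians were 0.06, 0.07 and -0.11. Of 14 genes of other lectin families, edgeR and limma-voom again called 0 at each time, with 1, 2 and 5 at an unadjusted p under 0.05, beside the same shares, and DESeq2 called 1 after recovery, CANX,CLGN c91353-g1, a lectin chaperone of the endoplasmic reticulum, at 979 ± 62.8 against 696 ± 51.8 CPM (edgeR log2 0.49, SE 0.15, adjusted p = 0.0807). The medians of the lectins were -0.02, -0.02 and 0.25. PTPRD and CANX,CLGN were named after their values were seen.

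Over time, members of these lists did pass the test, mostly between 4 h and recovery. In DMSO, where c100695-g1 differed by 0.61 over that interval, 4 of the 49 autophagy genes were higher after recovery than at 4 h and 2 lower, where 2.54% and 4.33% of all tested genes were. The higher ones were TFEC,MITF,TFE3,TFEB c103518-g1, a regulator of lysosomal genes (0.72, SE 0.16, edgeR adjusted p = 0.0117), MAP1LC3A c98301-g1, the ubiquitin-like protein of autophagosome membranes (0.72, adjusted p = 0.0177), the kinase TBK1,IKBKE c104446-g3 (0.49, adjusted p = 0.0216) and the receptor SQSTM1 c98750-g1 (0.41, adjusted p = 0.0404). The lower ones were the receptors CALCOCO1 c103103-g1 (-1.99, adjusted p = 0.0068) and TAX1BP1 c102882-g1 (-1.49, adjusted p = 0.0393). These 6 were named after their values were seen. The count of 6 was 2 to 12 under the alternatives, with the lowest without DMSO at 4 h, replicate 2 or 3, or DMSO after recovery, replicate 3.

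Of the 38 glycoproteins, 4 were higher and 2 lower over the same interval in DMSO, where 2.54% and 4.33% of all tested genes were. The lower ones had the smallest adjusted p, NRP1,NRP2 c95723-g1 (log2 -2.26, edgeR adjusted p = 0.0024) and ERBB3,ERBB2,EGFR,ERBB4 c101240-g2 (-0.82, adjusted p = 0.0085). Another gene with NRP1,NRP2 in its name, c94896-g1, was among the higher (log2 0.89, edgeR adjusted p = 0.0092). So was LAMP1 c103363-g2, a lysosomal membrane glycoprotein, at 147 ± 14.8 against 108 ± 7.48 CPM. The log2 difference of LAMP1 was 0.43 (SE 0.12), with the largest edgeR adjusted p of those called, 0.0394. Of 14 other lectins, 1 was higher, OS9 c100614-g1, which selects misfolded glycoproteins for degradation, at 17.6 ± 0.353 against 10.4 ± 1.26 CPM (log2 0.75, SE 0.13, adjusted p = 0.00166). Of the 28 glycan genes, 1 was higher and 3 lower, the lower ones being 2 genes of the glucuronyltransferase name B3GAT and MGAT4A,MGAT4C c92018-g1, which branches N-glycans (-0.88, adjusted p = 0.0117). In tryptamine over that interval, 3 autophagy genes were higher and 7 lower, 1 glycan gene was higher and 4 lower, 2 glycoproteins were higher and 0 lower, and 0 other lectins were called, where 1.4% of all tested genes were higher and 3.45% lower. These tryptamine counts depended on the fit: when only the 2 groups were fitted, 12 of all genes were called instead of 1169, and 0 of the autophagy genes, glycan genes or glycoproteins. Without tryptamine after recovery, replicate 2, these 3 lists also had 0, and without tryptamine at 4 h, replicate 2, the autophagy and glycan lists had 0. In DMSO the glycan genes called numbered 1 to 4 and the glycoproteins 2 to 7 without single libraries. NRP1,NRP2, c94896-g1, ERBB3,ERBB2,EGFR,ERBB4, LAMP1, OS9 and MGAT4A,MGAT4C were named after their values were seen.

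**Figure D4:**
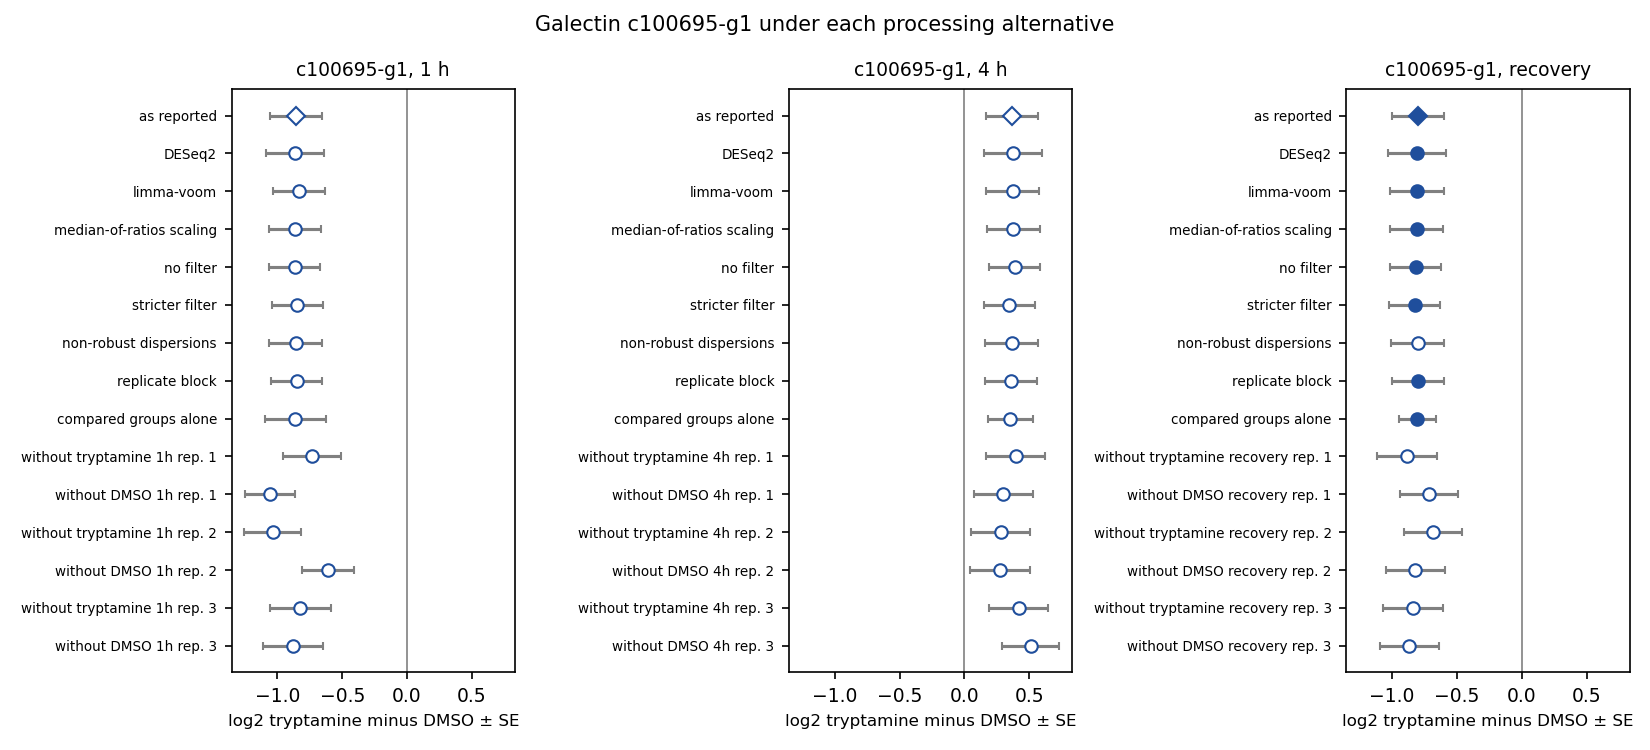
Log2 difference of c100695-g1 between tryptamine and DMSO (x axis, ± SE) at 1 h, at 4 h and after recovery (panels) as reported (diamond) and under each of 14 alternatives (circles, y axis), filled where the adjusted p was under 0.05 at 4 h and after recovery. All estimates are below 0 at 1 h (-1.06 to -0.61) and after recovery (-0.89 to -0.69) and above 0 at 4 h (0.28 to 0.51), and the filled symbols are found after recovery when all libraries were kept, except with non-robust dispersions.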

How the data were processed

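Messenger RNA of 18 libraries was measured, and the deposited values are unnormalised counts. Per the file headers, the authors obtained them with featureCounts 2.1.1 in unstranded mode, requiring both mates aligned and discarding chimeric pairs and multiple mappings. STAR is named as aligner in the submitters' processing notes, without a version. Features are contigs of an assembled transcriptome, genome coordinates were not used here, and 2908 rows join contigs of more than 1 gene number. No sequence of the galectin contigs was used here.

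From these counts, filterByExpr left 24125 genes, TMM factors ran from 0.854 to 1.09, and 1 quasi-likelihood model with a mean per group was fitted in edgeR 4.0.16 (R 4.3.3), with 12 residual degrees of freedom, two-sided tests and Benjamini-Hochberg adjustment over all tested genes at 0.05. Levels are CPM of the tested genes, scaled by TMM. A floor of 3 counts corresponded to 0.134 to 0.283 CPM and covers counting error only.

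Members, lists and tests were chosen with earlier results of these data known. All galectin genes were named, and of each list up to 2 called genes with the smallest adjusted p in each comparison of tryptamine with DMSO. Genes most like a member were the 5 with the highest Pearson correlation of log2 CPM (prior count 2), of which 1 is not reported here. The fits were repeated with DESeq2 1.42.0, limma-voom (limma 3.58.1), median-of-ratios scaling, no filter, a filter of 50 counts in 3 libraries, non-robust dispersions, a blocked fit on replicate number, a fit restricted to the groups compared, and leaving out each library. Only the main edgeR fit was first run on simulated data, for the comparisons of tryptamine with DMSO at each time. The alternative fits and the other comparisons were not simulated. Replicate pairs differed by more than sampling noise (chi-square over degrees of freedom 9.03 to 50.8). Same-numbered libraries deviated together at 1 h (correlations 0.332 to 0.402) and at 4 h (0.115 to 0.191), a property of the data that no label states, but not throughout after recovery (0.0852 to 0.287).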

Additional observations from a re-analysis of the deposited data

How the results depend on the processing

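Of 422 recomputed differences of the galectin genes, 383 kept their direction and their side of the threshold. After recovery the count of called galectin genes, 1, became 0 with non-robust dispersions and was 0 without each library in turn (0 to 0). It was 1 with the replicate block, where all genes called rose from 449 to 1329, against 1154 with DESeq2 and 0 to 466 without single libraries. For the tryptamine effect after recovery against 4 h, DESeq2 called 1 galectin gene, c100695-g1, among 188 of all genes, and edgeR and limma-voom called 0 galectin genes. In DMSO after recovery against 4 h it was called with the stricter filter (1) and in the compared groups alone (1). In contrasts that contain 1 h, the number of galectin genes under the threshold only records how the fit moved and is no test of c100695-g1. It was 1 with DESeq2 and 0 in edgeR for the effect at 4 h against 1 h and for DMSO and tryptamine after recovery against 1 h, 1 with the replicate block for DMSO after recovery against 1 h, and, for the mean effect over the 3 times, 1 in edgeR, 0 with limma-voom and 0 to 1 without single libraries. The replicate block moved no other such number.

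Signs changed only for small differences. Without single libraries c100695-g1 ranged from -0.19 to 0.26 for the effect after recovery against 1 h. Gene c100727-g1 ranged from -0.23 to 0.056 for tryptamine against DMSO at 4 h, from -0.047 to 0.24 for the effect at 4 h against 1 h, from -0.34 to 0.083 for that after recovery against 1 h, from -0.19 to 0.024 for DMSO after recovery against 1 h and from -0.19 to 0.23 for tryptamine after recovery against 4 h, the last also 0.0051 with the stricter filter. Leaving out a library changes the number of samples and the library used together, and the cause of these changes was not tested.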
